A study of Mus musculus with 12 samples.

Results

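The genes described here are 41 mouse genes of DNA replication and of entry into S phase, taken from a fixed list of symbols that covers the loading of the replicative helicase, its firing, the polymerases, the sliding clamp and its loader, the joining of lagging-strand fragments, the supply of deoxynucleotides and the cyclin and E2F factors of the G1/S transition. Of these, 37 had a matched probe. Gins1, Gins2, Rfc3 and Rfc5 were without one and were not analysed. The 37 genes carried 49 probes among 18407 genes tested, of which 11580 had a symbol. Each of the 37 genes was well above background on all 12 arrays and none was saturated, so none entered the test only through the group where it was high.

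The cells were dendritic cells grown from the marrow of female mice 6 to 8 weeks old, for which the labels name no strain or genetic change. Marrow was cultured with GM-CSF at 20 ng/ml, and on day 7 the loosely attached and floating cells were taken as immature dendritic cells. They received nanoparticles of poly(γ-glutamic acid), a biodegradable polypeptide (γ-PGA), at 300 µg/ml, and RNA was measured at 0, 6, 12 and 24 h, with 3 samples per time from 3 experiments described as independent. No culture without particles was kept for 6, 12 or 24 h, so particle exposure and time in the new culture cannot be told apart. These cultures are made of cells that had been dividing in GM-CSF, and in such bulk RNA fewer dividing cells and less RNA of a gene per cell cannot be told apart.

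Replication starts when the origin recognition complex with CDC6 and CDT1 loads the MCM2 to MCM7 helicase ring onto DNA in G1. The kinase CDC7, with CDC45, GINS and MCM10, then turns that ring into an active helicase. Polymerase alpha with primase starts each strand, polymerases delta and epsilon extend it on the PCNA clamp, which replication factor C loads, and FEN1 with DNA ligase I joins the fragments of the lagging strand. Transcription of many of these genes is raised at the end of G1 by E2F factors, once cyclin-dependent kinases release them from the retinoblastoma protein. Marrow cultures in GM-CSF start from dividing precursors, and the cells leave the cycle as they mature.

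The authors deposited 2 sets of values for the same 12 samples, and fitted changes are given from both. The first is the scanner signal, given here as a level: log2 of the signal over the 75th percentile of its array, so that 0 is the level of that percentile. The second is the value table, in which each value is a linear ratio to the median of the 3 values at 0 h. Between 50.9% and 59.6% of spots were well above background, and outlier spots were left out: there were 628 of them in 6 h replicate 2, beside 1 to 42 in every other array. The array of 6 h replicate 2 lost its Mcm7 and Pole2 spots this way, so both genes have 2 scanner values at 6 h. The arrays lay on 3 slides, each scanned on its own: the first held the 0 h samples with 6 h replicate 1, the second held the rest of 6 h beside 12 h replicates 1 and 2, and 12 h replicate 3 shared the third with the 24 h samples. Markers of dendritic cells were present, with all 10 listed well above background on every array at 0 and 24 h. At 6 and 12 h this held for 8 of 10, with Cd209a below background on every array and Flt3 on some. The 7 macrophage and 9 granulocyte precursor markers with a probe were well above background on every array too, so these markers do not set dendritic cells apart.

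The sources differ at 24 h, which touches every 24 h value below. By the scanner signal, arrays labelled 24 h correlated with 0 h arrays at a mean Pearson r of 0.991 over 18407 genes, near the 0.995 among the 0 h arrays themselves, and with those at 6 h at 0.923. In the value table the columns labelled 24 h stood far from those at 0 h. Which source carries the values of the 24 h samples could not be told from the files, and every 24 h value below is that of the samples so labelled. Across all genes the fitted changes of both sources correlated at 0.73 at 6 h, 0.54 at 12 h and -0.07 at 24 h, and across the 37 replication genes at 0.67, 0.30 and -0.21. These correlations run across genes of the same samples and describe the files only.

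At 6 h most replication genes were lower than at 0 h, in both sources. Changes are called here where limma gave an adjusted p under 0.05, by Benjamini-Hochberg over the 18407 genes, and the size was at least 2-fold. By the scanner values 21 of 37 genes fell, against 15.9% of all genes called lower, and none rose, against 10.2% of all genes called higher. The median log2 change of the 37 genes was -1.09, beside -0.06 over all genes. The value table called 24 of 37 lower, against 11.8% of all genes, and none higher, against 13.3%, and the medians were -1.18 and 0.14. The genes lower in both sources numbered 18, with 3 lower in the scanner values only, 6 in the table only and 10 in neither. By array, the median change of the 37 genes from the 0 h mean was -1.03, -1.06 and -1.04 in the 3 samples at 6 h by the scanner values.

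At 12 h the fall held. The scanner values called 17 of 37 genes lower, against 16.9% of all genes, and none higher, against 13.7%, with medians of -0.72 for the 37 genes and -0.03 for all genes. The value table called 20 lower, against 12.1%, and none higher, against 15.7%, with medians of -1.23 and 0.22. Both sources called 10 genes lower, the scanner values alone 7 and the table alone 10. At 24 h the scanner values called none of the 37 genes changed in limma, against 0.141% of all genes lower and 0.695% higher. An unadjusted p under 0.05 was reached by 3 of the 37, beside 3740 of all 18407 genes. At any size of change the adjusted p passed for none of the 37, against 1.28% of all genes lower and 2.29% higher. Their median was 0.06, beside 0.04 over all genes. At 24 h the table had 26 of 37 genes called lower, against 13% of all genes, and none higher, against 13.3%, with medians of -1.38 and 0.12. Normexp background correction took 7 of the scanner calls at 6 h short of 2-fold, those of Ccne2, Mcm10, Pole, Pole2, Prim2, Rfc4 and Ung, and 5 at 12 h, those of Cdc7, Pole2, Prim2, Rfc4 and Ung. Quantile normalization of the table did so for Mcm4, Mcm10, Rfc4 and Uhrf1 at 6 h and Lig1, Mcm2 and Uhrf1 at 12 h. The median over all genes in the table sat above 0 at all 3 times, and the changes given from it are not corrected for that shift.

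**Figure D1:**
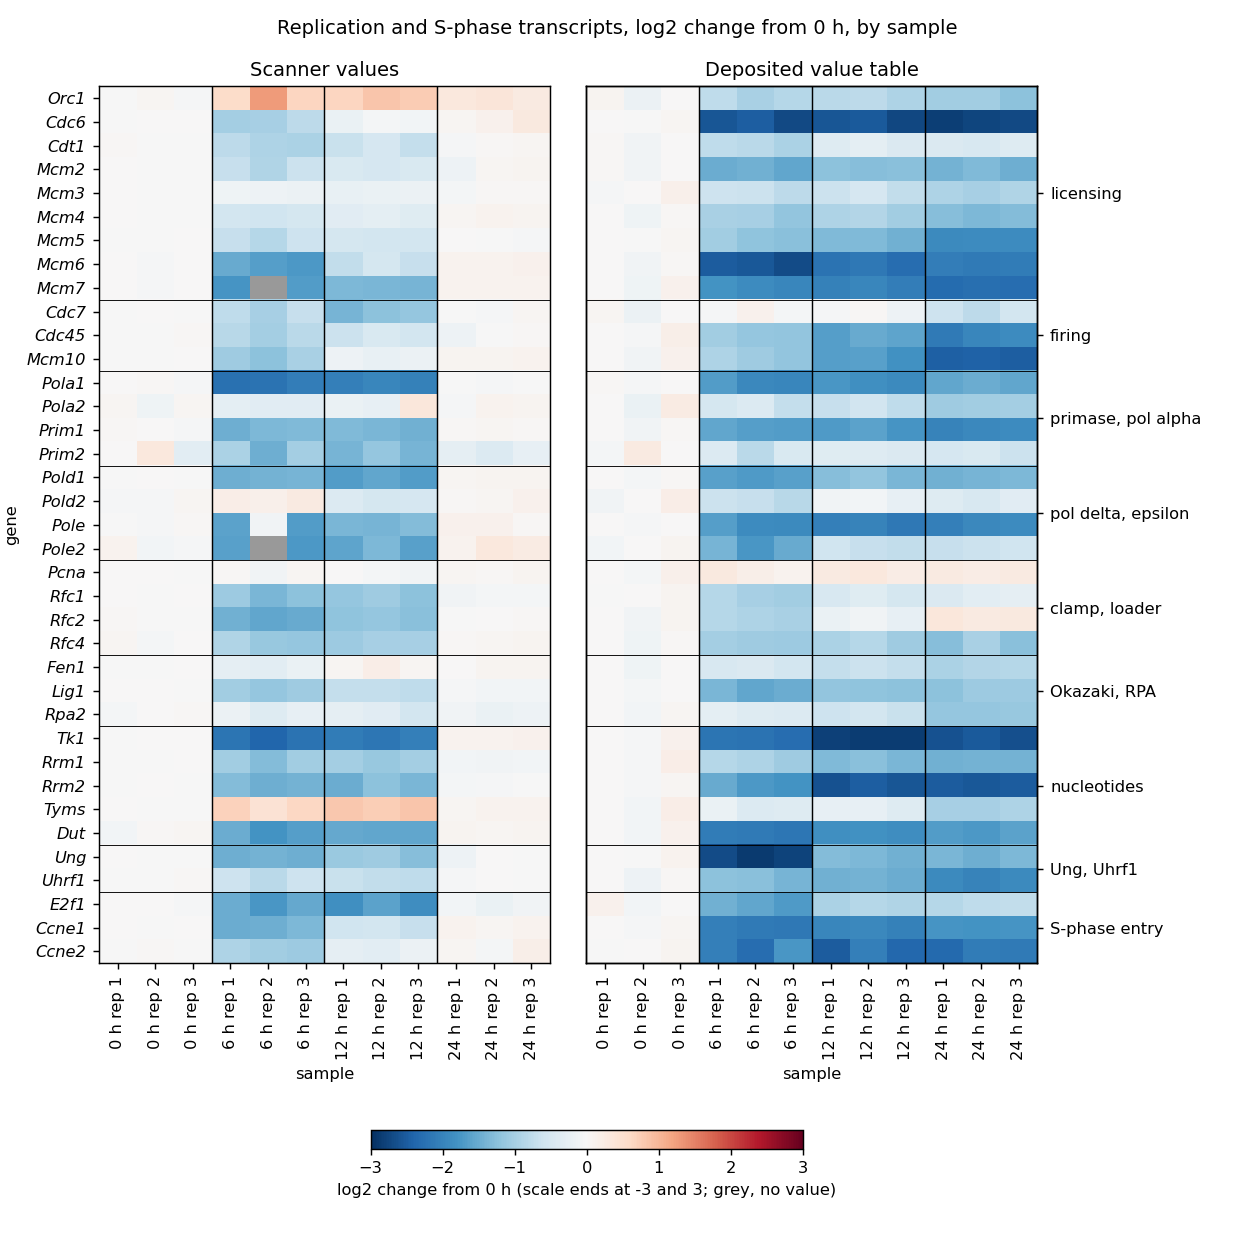
Log2 change from 0 h of each of the 37 genes (vertical axis, in order of role) in each of the 12 samples (horizontal axis), in the scanner values (left, relative to the mean at 0 h) and in the value table (right, log2 ratio), with the colour scale from -3 to 3 and missing spots in grey. Both panels are mostly blue at 6 and 12 h, and at 24 h the left panel is near 0, with a median of 0.06, and the right panel is blue, with a median of -1.38.

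Promoter windows show which of these genes carry an E2F-type sequence near an annotated start. RefSeq promoter windows of GRCm38.p6, 250 bases before to 50 after an annotated start, were given for 32 of the 37 genes, in 39 windows. TTTNNCGC, searched on both strands like the other motifs, lay in 14 of 39 windows (35.9%), beside 5.17% of 32851 windows of all genes. GGGCGG (SP type) lay in 76.9% of the 39 windows, beside 35.7% of all windows, CCAAT (NF-Y type) in 48.7%, beside 37.4%, and TTTGAA (CHR type) in 15.4%, beside 17.9%. In the windows of mitosis genes, of which there were 37, TTTNNCGC lay in 4 and TTTGAA in 26. Among the replication genes, 6 of 20 windows of genes called lower at 6 h by the scanner values held TTTNNCGC, and 8 of 19 windows of the others did. These are counts of windows, and some genes, such as Lig1 and Uhrf1, have several. The value table called some of the other genes lower, so the split depends on the source, and the difference was not tested. A match is a run of letters, and whether a factor binds there was not measured. The letters were not used to choose the genes. Many genes of this kind are raised by E2F factors, however, so a high share is not independent of the choice. The 13 genes with a match are shown with the match nearest to the start, in the orientation of the gene. TTTNNCGC or its reverse complement GCGNNAAA is in capitals, with up to 11 flanking bases. Of the 13 matches, 10 began within 100 bases of the annotated start, and that of Mcm7 overlapped a CCAAT.
Orc1 (chr4:108579416-108579445, plus strand): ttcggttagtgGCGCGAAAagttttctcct
Cdc6 (chr11:98908002-98908031, plus strand): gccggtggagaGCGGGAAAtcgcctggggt
Cdt1 (chr8:122568036-122568064, plus strand): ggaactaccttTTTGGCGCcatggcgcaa
Mcm3 (chr1:20820275-20820304, minus strand): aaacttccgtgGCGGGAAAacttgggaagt
Mcm5 (chr8:75109349-75109378, plus strand): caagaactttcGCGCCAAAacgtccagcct
Mcm6 (chr1:128359734-128359763, minus strand): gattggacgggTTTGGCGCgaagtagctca
Mcm7 (chr5:138171849-138171878, minus strand): gggtgacgacgTTTCGCGCcaatttcggtt
Pola1 (chrX:93632275-93632304, minus strand): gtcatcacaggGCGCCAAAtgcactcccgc
Pold1 (chr7:44548766-44548787, minus strand): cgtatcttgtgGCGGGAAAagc
Pole2 (chr12:69228162-69228191, minus strand): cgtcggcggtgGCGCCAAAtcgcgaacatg
Lig1 (chr7:13278841-13278870, plus strand): cgccaaagtgcGCGCGAAAtctgtgtggcg
Tyms (chr5:30073576-30073595, minus strand): aaggtcctggtTTTGTCGCt
Uhrf1 (chr17:56303270-56303299, plus strand): gccccacttgcTTTCTCGCttcccgccaca

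The letters GCGCCAAA recurred in Mcm5, Pola1 and Pole2, and GCGGGAAA in Cdc6, Mcm3 and Pold1. Mcm6, Mcm7, Pola1, Pold1, Pole2 and Lig1 were called lower at 6 h in both sources. Cdc6, Mcm5 and Uhrf1 were called lower in the value table only, and Orc1, Cdt1, Mcm3 and Tyms in neither source. The whole windows are printed for the 4 genes with the largest mean change over 6 and 12 h among those with a window, with matches of any of the motifs in capitals.
Tk1 (chr11:117825965-117826264, minus strand): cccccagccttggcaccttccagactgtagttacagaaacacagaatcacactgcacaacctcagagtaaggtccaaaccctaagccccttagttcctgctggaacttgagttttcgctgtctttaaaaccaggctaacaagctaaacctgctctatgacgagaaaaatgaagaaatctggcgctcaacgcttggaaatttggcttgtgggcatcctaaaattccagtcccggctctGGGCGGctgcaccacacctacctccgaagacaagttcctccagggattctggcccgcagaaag
Pola1 (chrX:93632106-93632405, minus strand): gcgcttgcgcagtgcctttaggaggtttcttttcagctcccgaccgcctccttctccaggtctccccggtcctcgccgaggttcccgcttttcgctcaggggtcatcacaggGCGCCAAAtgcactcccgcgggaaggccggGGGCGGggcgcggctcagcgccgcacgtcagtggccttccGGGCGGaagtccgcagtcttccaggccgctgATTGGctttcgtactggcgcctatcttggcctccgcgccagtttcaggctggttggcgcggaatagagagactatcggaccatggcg
E2f1 (chr2:154569377-154569676, minus strand): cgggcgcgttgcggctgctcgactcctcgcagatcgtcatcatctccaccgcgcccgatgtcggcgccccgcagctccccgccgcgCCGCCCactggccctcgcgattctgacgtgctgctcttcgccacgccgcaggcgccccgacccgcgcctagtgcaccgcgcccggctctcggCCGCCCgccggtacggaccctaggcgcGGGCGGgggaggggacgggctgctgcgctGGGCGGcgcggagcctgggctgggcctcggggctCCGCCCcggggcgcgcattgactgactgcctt
Dut (chr2:125247265-125247564, plus strand): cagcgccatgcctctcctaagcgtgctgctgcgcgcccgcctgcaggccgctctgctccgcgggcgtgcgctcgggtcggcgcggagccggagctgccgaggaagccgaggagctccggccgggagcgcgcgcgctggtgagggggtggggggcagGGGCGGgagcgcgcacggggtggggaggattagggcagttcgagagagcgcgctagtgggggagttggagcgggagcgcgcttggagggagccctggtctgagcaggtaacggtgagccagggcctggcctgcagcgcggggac

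Of these 4 windows, that of Pola1 alone held TTTNNCGC, at position -138 from the annotated start, and it also held CCAAT, read on the same strand as that match, and 2 copies of GGGCGG. The windows of Tk1 and Dut each held GGGCGG once, and that of E2f1 held it 5 times over both strands. The starts are annotated ones, a gene may have others, and whether these cells use the starts shown was not measured. A window may therefore lie away from the promoter in use. For Tk1, E2f1 and Dut, a window without TTTNNCGC does not show that the promoter lacks it.

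For genes of origin licensing the sources gave different counts. Of 9 genes, 2 fell at 6 h and 1 at 12 h by the scanner values, which is close to the 15.9% and 16.9% of all genes called lower. By the value table, the counts were 6 and 5, beside 11.8% and 12.1% of all genes. The median log2 changes were -0.74 and -0.47 by the scanner values and -1.18 and -1.23 in the table. Mcm6 and Mcm7, subunits of the helicase ring, changed most by the scanner values. The level of Mcm6 was 3.88, 3.84 and 3.89 at 0 h, 2.35, 2.22 and 2.14 at 6 h, 3.12, 3.34 and 3.17 at 12 h and 3.97, 3.97 and 3.99 at 24 h. All samples at 6 and 12 h were below all samples at 0 h, and those at 6 h were the lowest. The fitted change was -1.63 (SE 0.066) at 6 h and -0.66 (SE 0.066) at 12 h, the latter short of 2-fold. In the value table the ratio of Mcm6 was 1, 0.937 and 1.02 at 0 h, 0.177, 0.173 and 0.157 at 6 h, 0.216, 0.227 and 0.204 at 12 h and 0.239, 0.228 and 0.234 at 24 h. There the gene stayed low, with log2 changes of -2.55, -2.20 and -2.08.

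The level of Mcm7 was 3.62, 3.58 and 3.63 at 0 h, 1.84 and 1.94 in replicates 1 and 3 at 6 h, 2.27, 2.25 and 2.22 at 12 h and 3.71, 3.71 and 3.71 at 24 h. Its ratio in the table was 1, 0.913 and 1.1 at 0 h, 0.289, 0.27 and 0.256 at 6 h, 0.244, 0.256 and 0.239 at 12 h and 0.202, 0.207 and 0.207 at 24 h. The groups at 6 and 12 h did not overlap with 0 h in either source, and the 24 h samples were the highest in the first source and the lowest in the second. The log2 change was -1.72 (SE 0.043) at 6 h, from 2 values there, and -1.36 (SE 0.039) at 12 h by the scanner values, and -1.88, -2.02 and -2.29 at 6, 12 and 24 h in the table.

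The other helicase subunits changed less by the scanner values. The changes at 6 h were -0.74 for Mcm2, -0.16 for Mcm3, -0.56 for Mcm4 and -0.73 for Mcm5, all short of 2-fold. In the table, Mcm2, Mcm4 and Mcm5 fell at 6 h, by 1.47, 1.02 and 1.18 on the log2 scale, and Mcm3 changed by -0.73. The loader genes Cdc6 and Cdt1 changed by -0.93 and -0.89 at 6 h by the scanner values. Cdc6 fell further in the table, -2.60 at 6 h, -2.62 at 12 h and -2.78 at 24 h. Its second probe on the arrays changed by -1.67 at 6 h and -1.55 at 12 h, while the brighter probe that stands for the gene changed by -0.93 and -0.11, so the probes of Cdc6 disagree. Orc1, the largest subunit of the origin recognition complex, differed in sign between the sources. Its scanner change was 0.81 at 6 h (SE 0.16) and 0.75 at 12 h (SE 0.16), adjusted p = 9.33e-04 and 0.00152 in limma and short of 2-fold, and its table change was -0.83 and -0.80. Without 6 h replicate 2, the sample with most outlier spots, the scanner change of Orc1 at 6 h was 0.59.

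Genes of origin firing were measured in 3 of 5 cases. CDC7 is the kinase that activates the loaded helicase. The level of Cdc7 was -1.33, -1.29 and -1.32 at 0 h, -2.08, -2.31 and -2.00 at 6 h, -2.70, -2.55 and -2.48 at 12 h and -1.33, -1.34 and -1.25 at 24 h, and its change was -0.81 (SE 0.081) at 6 h and -1.26 (SE 0.081) at 12 h, with only the second past 2-fold. The table gave Cdc7 ratios of 1.04, 0.887 and 1 at 0 h, 0.974, 1.09 and 0.965 at 6 h, 0.978, 1.02 and 0.906 at 12 h and 0.652, 0.584 and 0.687 at 24 h. The table groups at 6 and 12 h thus overlapped with 0 h, and its log2 changes were 0.05 and -0.01, with signs that turn under other scalings of the table.

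MCM10 joins the helicase as it starts to move. Its gene had levels of 2.82, 2.83 and 2.86 at 0 h, 1.77, 1.60 and 1.87 at 6 h, 2.68, 2.62 and 2.67 at 12 h and 2.92, 2.93 and 2.94 at 24 h. By these values Mcm10 was low at 6 h and near its starting level at 12 h, with changes of -1.09 (SE 0.059) and -0.18 (SE 0.059). The table ratio of Mcm10 was 1, 0.924 and 1.1 at 0 h, 0.522, 0.48 and 0.443 at 6 h, 0.317, 0.324 and 0.282 at 12 h and 0.182, 0.186 and 0.18 at 24 h. There each group lay below the one before it, with log2 changes of -1.06, -1.71 and -2.46. Cdc45, a subunit of the active helicase, changed by -0.89 and -0.55 at 6 and 12 h by the scanner values and by -1.17 and -1.62 in the table.

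Primase and polymerase alpha make the first primer. Of their 4 genes, 3 fell at both 6 and 12 h by the scanner values and 2 in the table. Of all genes, 15.9% and 16.9% were called lower at these times by the scanner values and 11.8% and 12.1% in the table. Here and below, roles of 4 genes or fewer are too short to be judged against these shares. Pola1, the catalytic subunit of polymerase alpha, had levels of 0.85, 0.88 and 0.80 at 0 h, -1.39, -1.38 and -1.24 at 6 h, -1.21, -1.11 and -1.19 at 12 h and 0.83, 0.81 and 0.84 at 24 h. All values at 6 and 12 h were far below those at 0 h, and those at 24 h lay among them. The log2 change was -2.18 (SE 0.048), or 4.54-fold lower, adjusted p = 1.03e-10 in limma, and -2.02 (SE 0.048) at 12 h. In the table the Pola1 ratio was 1.02, 0.975 and 1 at 0 h, 0.315, 0.262 and 0.259 at 6 h, 0.296, 0.281 and 0.265 at 12 h and 0.34, 0.356 and 0.338 at 24 h. No 24 h value exceeded 0.356 there, with a log2 change of -1.53 at 24 h. 

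Prim1, the catalytic primase subunit, had levels of 1.85, 1.84 and 1.78 at 0 h, 0.35, 0.47 and 0.51 at 6 h, 0.49, 0.46 and 0.39 at 12 h and 1.87, 1.88 and 1.85 at 24 h. Its table ratio was 1, 0.934 and 1.02 at 0 h, 0.338, 0.319 and 0.312 at 6 h, 0.306, 0.331 and 0.294 at 12 h and 0.25, 0.264 and 0.271 at 24 h. The sources were close at 6 and 12 h, with log2 changes of -1.38 (SE 0.048) and -1.38 (SE 0.048) by the scanner values and -1.61 and -1.67 in the table. Prim2, the other primase subunit, had scanner levels spread over -2.17, -1.87 and -2.49 at 0 h, and fell by the scanner values, -1.14 (SE 0.17) at 6 h, with a table change of -0.63. Pola2, the second subunit of polymerase alpha, changed by -0.33 and -0.57 and was not called at 6 h in either source.

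Of the replicative polymerases delta and epsilon, 3 of 4 genes fell at 6 h in both sources, beside 15.9% and 11.8% of all genes. Pold1, the catalytic subunit of polymerase delta, had levels of 2.88, 2.89 and 2.88 at 0 h, 1.41, 1.46 and 1.49 at 6 h, 1.20, 1.33 and 1.21 at 12 h and 2.95, 2.97 and 2.96 at 24 h. The 12 h samples were the lowest, with changes of -1.43 (SE 0.041) at 6 h and -1.63 (SE 0.041) at 12 h. Its table ratio was 1, 0.96 and 1.03 at 0 h, 0.323, 0.308 and 0.323 at 6 h, 0.411, 0.438 and 0.388 at 12 h and 0.371, 0.38 and 0.39 at 24 h, and here the 6 h samples were the lowest, with a log2 change of -1.65.

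Pole2, an accessory subunit of polymerase epsilon, had levels of -1.10, -1.29 and -1.25 at 0 h, -2.84 and -2.94 in replicates 1 and 3 at 6 h, -2.79, -2.55 and -2.84 at 12 h and -1.10, -0.90 and -0.97 at 24 h. Its change was -1.68 (SE 0.1) at 6 h, from 2 values there, and -1.51 (SE 0.09) at 12 h. The table ratio of Pole2 was 0.941, 1 and 1.06 at 0 h, 0.379, 0.3 and 0.349 at 6 h, 0.656, 0.62 and 0.598 at 12 h and 0.617, 0.635 and 0.663 at 24 h. By the table the gene was lowest at 6 h and part of the way back at 12 h, with log2 changes of -1.55 and -0.68. Pole, the catalytic subunit, had scanner levels at 6 h of -0.55, 0.95 and -0.62, so replicate 2 stood with the 0 h levels of 1.04, 1.02 and 1.09. Its change was -1.12 (SE 0.33) with that sample and -1.63 (SE 0.047) without it, and the table, whose ratios at 6 h were 0.319, 0.27 and 0.267, gave -1.81. Pold2, the second subunit of polymerase delta, was not called and changed by 0.21 and -0.75.

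The clamp and its loader parted. Pcna, the sliding clamp, had levels of 5.17, 5.17 and 5.16 at 0 h, 5.21, 5.07 and 5.23 at 6 h, 5.19, 5.11 and 5.07 at 12 h and 5.23, 5.20 and 5.24 at 24 h. The groups at 6 and 12 h overlapped with 0 h, and the change was 0.01 (SE 0.049) at 6 h, with a 95% interval on the 8 residual degrees of freedom from -0.11 to 0.12, and -0.04 (SE 0.049) at 12 h. Its table ratio was 1.23, 1.12 and 1.08 at 6 h, 1.2, 1.24 and 1.16 at 12 h and 1.2, 1.16 and 1.2 at 24 h, and the signs of these small changes turn under other scalings of both sources at 6 h and of the table at 12 and 24 h.

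Rfc2, a small subunit of the loader, had levels of 4.81, 4.78 and 4.76 at 0 h, 3.35, 3.22 and 3.28 at 6 h, 3.58, 3.63 and 3.52 at 12 h and 4.77, 4.80 and 4.81 at 24 h. Its table ratio was 1, 0.934 and 1.05 at 0 h, 0.557, 0.525 and 0.513 at 6 h, 0.874, 0.923 and 0.84 at 12 h and 1.26, 1.2 and 1.23 at 24 h. Both sources were lowest at 6 h, with changes of -1.50 (SE 0.045) and -0.90 (SE 0.059), and the table was above its 0 h values at 24 h, by 0.31. Rfc1, the large subunit, had levels of 2.24, 2.23 and 2.25 at 0 h, 1.15, 0.88 and 1.00 at 6 h, 1.09, 1.18 and 1.00 at 12 h and 2.14, 2.18 and 2.18 at 24 h. In the table its ratio was 0.984, 1 and 1.06 at 0 h, 0.552, 0.503 and 0.482 at 6 h, 0.716, 0.777 and 0.693 at 12 h and 0.737, 0.803 and 0.831 at 24 h. The fall of Rfc1 passed 2-fold by the scanner values, -1.23 (SE 0.069) at 6 h, and just missed it in the table, -0.99 (SE 0.071). Rfc4, a further small subunit, fell in both sources at 6 h, by 1.06 and 1.03 on the log2 scale.

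In the joining of lagging-strand fragments, Lig1 was the gene that fell. Lig1, DNA ligase I, had levels of 3.49, 3.50 and 3.46 at 0 h, 2.44, 2.32 and 2.41 at 6 h, 2.76, 2.76 and 2.71 at 12 h and 3.45, 3.40 and 3.41 at 24 h. In the table its ratio was 1, 0.966 and 1.01 at 0 h, 0.39, 0.341 and 0.356 at 6 h, 0.437, 0.432 and 0.428 at 12 h and 0.427, 0.47 and 0.472 at 24 h. No sample at 6 or 12 h reached the lowest at 0 h, and the changes at 6 h were -1.09 (SE 0.041) and -1.46 (SE 0.06). Fen1, the flap endonuclease, changed by -0.25 and -0.45 at 6 h, and Rpa2, a subunit of the protein that covers single-stranded DNA, by -0.27 and -0.35. Neither was called at 6 or 12 h.

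In nucleotide supply 4 of 5 genes were lower at 6 and at 12 h in both sources. Of all genes, 15.9% and 16.9% were lower by the scanner values and 11.8% and 12.1% in the table. Tk1, the thymidine kinase of S phase, had levels of 1.79, 1.80 and 1.80 at 0 h, -0.40, -0.59 and -0.42 at 6 h, -0.30, -0.36 and -0.26 at 12 h and 1.91, 1.90 and 1.92 at 24 h. All samples at 6 and 12 h were below all samples at 0 h. The log2 change was -2.27 (SE 0.052) at 6 h, or 4.82-fold lower, adjusted p = 1.31e-10 in limma, and -2.10 (SE 0.052) at 12 h. The table ratio of Tk1 was 1, 0.979 and 1.09 at 0 h, 0.219, 0.216 and 0.204 at 6 h, 0.143, 0.139 and 0.14 at 12 h and 0.162, 0.174 and 0.161 at 24 h. It was lowest at 12 h there, with log2 changes of -2.26, -2.86 and -2.62.

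Dut, the enzyme that keeps uracil nucleotides out of DNA, had levels of 2.52, 2.63 and 2.65 at 0 h, 1.11, 0.81 and 0.95 at 6 h, 1.06, 1.03 and 1.03 at 12 h and 2.69, 2.67 and 2.69 at 24 h. In the table its ratio was 1, 0.944 and 1.08 at 0 h, 0.234, 0.231 and 0.222 at 6 h, 0.277, 0.286 and 0.273 at 12 h and 0.313, 0.305 and 0.328 at 24 h. Both sources placed all samples at 6 and 12 h below 0 h, with changes of -1.65 (SE 0.07) and -2.14 (SE 0.058) at 6 h. The ribonucleotide reductase genes Rrm1 and Rrm2 changed by -1.13 and -1.39 at 6 h by the scanner values and by -1.01 and -1.68 in the table, and all 4 changes were called. Tyms, thymidylate synthase, went the other way by the scanner values. Its scanner level was 2.98, 2.95 and 2.95 at 0 h, 3.65, 3.39 and 3.58 at 6 h and 3.78, 3.69 and 3.80 at 12 h. These groups did not overlap, but the changes of 0.58 and 0.80 were short of 2-fold, and the table changes were -0.37 and -0.34.

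**Figure D2:**
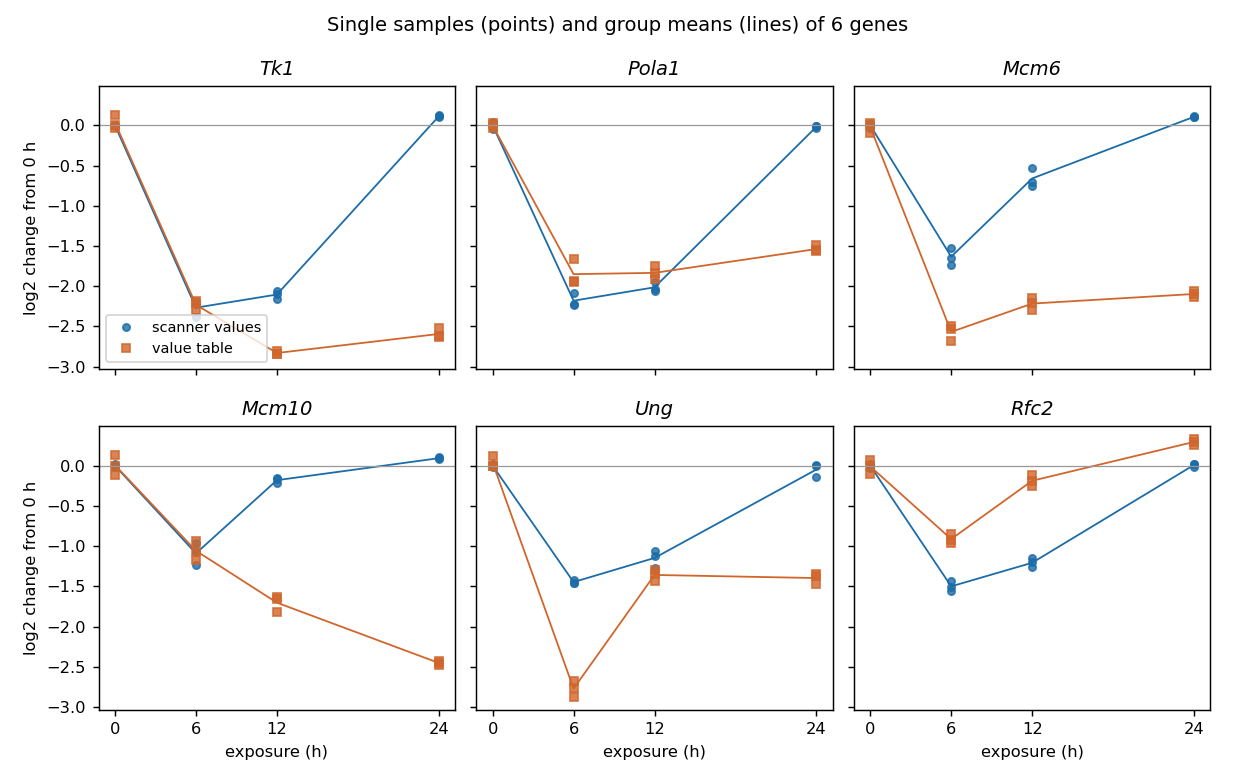
Log2 change from 0 h (vertical axis) against hours of exposure (horizontal axis) for Tk1, Pola1, Mcm6, Mcm10, Ung and Rfc2, with each sample as a point and the group means joined by lines, in the scanner values (blue) and the value table (orange). At 6 h all 6 genes are below 0 in both sources, and at 24 h the scanner means are near 0 while the table means are below -1 for all but Rfc2.

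Ung, the uracil DNA glycosylase that removes uracil from newly made DNA, had levels of -1.24, -1.28 and -1.27 at 0 h, -2.72, -2.69 and -2.72 at 6 h, -2.38, -2.32 and -2.53 at 12 h and -1.41, -1.25 and -1.27 at 24 h. In the table its ratio was 1, 0.997 and 1.08 at 0 h, 0.157, 0.136 and 0.147 at 6 h, 0.406, 0.394 and 0.371 at 12 h and 0.385, 0.361 and 0.394 at 24 h. Both sources were lowest at 6 h, at -1.45 (SE 0.06) and -2.81 (SE 0.066), and the table rose again between 6 and 12 h. Uhrf1, which brings the maintenance methyltransferase to new DNA, changed by -0.68 at 6 h by the scanner values, short of 2-fold, and in the table it fell by 1.25 on the log2 scale.

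All 3 genes of S-phase entry fell at 6 h in both sources, beside 15.9% and 11.8% of all genes. By the scanner values, however, Ccne2 fell short of 2-fold with normexp correction, at -0.33, and with quantile normalization, at -0.93. E2f1, an activating E2F factor and itself a target of the E2F factors, had levels of -0.24, -0.25 and -0.30 at 0 h, -1.75, -2.00 and -1.80 at 6 h, -2.10, -1.87 and -2.13 at 12 h and -0.34, -0.46 and -0.37 at 24 h. Its table ratio was 1.1, 0.952 and 1 at 0 h, 0.366, 0.34 and 0.308 at 6 h, 0.515, 0.549 and 0.531 at 12 h and 0.552, 0.586 and 0.598 at 24 h. The change at 6 h was the same in both, -1.59 (SE 0.082) and -1.59 (SE 0.075), and at 12 h it was -1.77 by the scanner values and -0.93 in the table. A second E2f1 probe on the arrays changed by -0.86 at 6 h. Ccne1 and Ccne2, the E-type cyclins that drive the G1/S transition, changed by -1.43 and -1.03 at 6 h and -0.61 and -0.26 at 12 h by the scanner values, and by -2.11, -2.05, -1.98 and -2.33 in the table. The scanner change of Ccne2 at 12 h turns sign under another scaling.

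**Figure D3:**
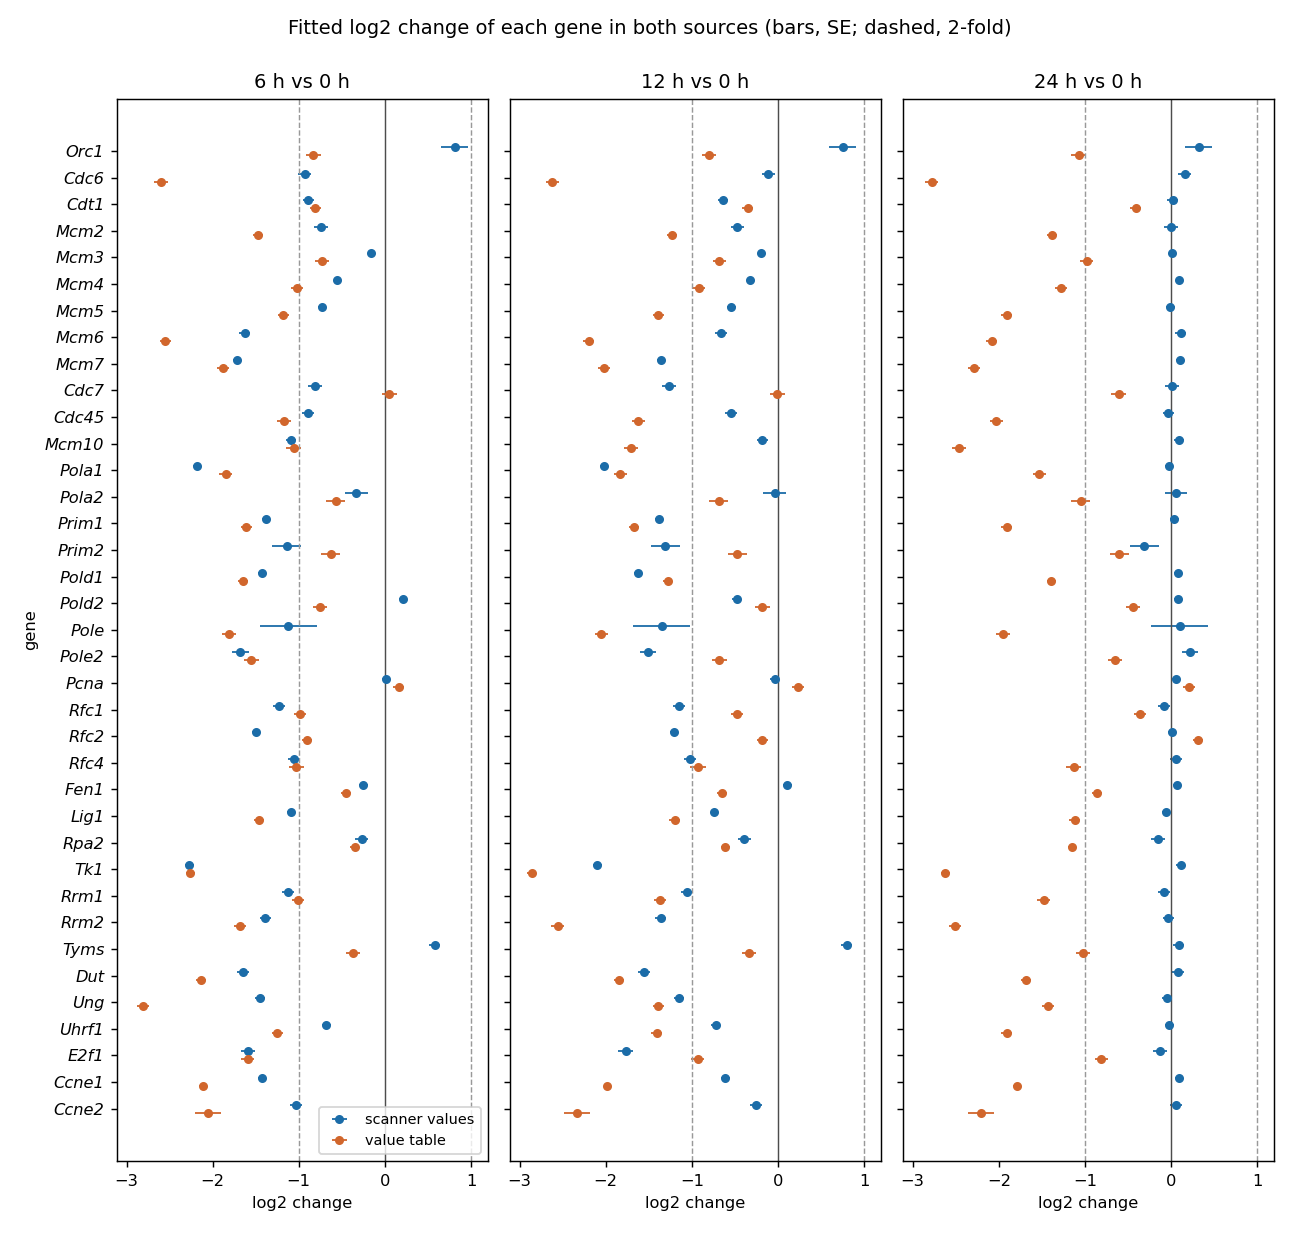
Fitted log2 change (horizontal axis) of each of the 37 genes (vertical axis) at 6, 12 and 24 h against 0 h, in the scanner values (blue) and the value table (orange), with SE bars and dashed lines at 2-fold. Most points at 6 h lie left of 0 in both sources, Pcna is near 0, and Orc1, Tyms and Pold2 are right of 0 in blue and left of it in orange.

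Between 6 and 12 h some of the lowered genes moved back towards their starting level by the scanner values, most by less than 2-fold. In limma none of the 37 was called at 2-fold, against 2.1% of all genes lower and 4.88% higher. An unadjusted p under 0.05 was reached by 22 of the 37, beside 9845 of all 18407 genes. At any size of change, 18 of 37 were higher at 12 h than at 6 h, against 26.2% of all genes, and 3 were lower, against 21.2%. Tyms, at 0.22, was among those higher, and it was already above its 0 h level at 6 h. The median of the 37 genes was 0.17, beside 0.03 over all genes. The 5 largest were Mcm6 at 0.97 (SE 0.066), Mcm10 at 0.91 (SE 0.059), Ccne1 at 0.82 (SE 0.048), Cdc6 at 0.82 (SE 0.077) and Ccne2 at 0.77 (SE 0.069), named here after their values were seen. The second Cdc6 probe stayed low, at -1.67 at 6 h and -1.55 at 12 h against 0 h, so that rise depends on the probe. The lowest were Pold2 at -0.69, Cdc7 at -0.45 and Pold1 at -0.20. With the slide as a fixed block, Mcm6 passed 2-fold, at 1.05, and within the slide that held both times it was 1.05 too, but with the slide as a random block it was 0.99 and not called. It also passed without 6 h replicate 1, at 1.03, and without 12 h replicate 1, at 1.02.

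The value table called 1 of 37 genes between 6 and 12 h, against 3.07% of all genes higher and 2.73% lower. It was Ung, which rose by 1.41 (SE 0.066), and the median of the 37 genes was 0.04. The genes with the largest scanner rises did not share it: in the table Mcm6 changed by 0.35, Mcm10 by -0.65, Ccne1 by 0.13, Cdc6 by -0.02 and Ccne2 by -0.28. Between 12 and 24 h the scanner values called 16 of 37 genes higher, against 18.2% of all genes, and none lower, against 12.9%, with a median of 0.71, beside 0.11 over all genes. The largest were Tk1 at 2.21 and Pola1 at 2.00. The table called none of the 37 in limma, against 3.17% of all genes lower and 1.4% higher. There 22 of the 37 had an unadjusted p under 0.05, beside 9358 of all 18407 genes. The median was -0.13 for the 37 genes and -0.13 for all genes.

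Other genes of the pathway are counted here against the shares of all genes called at 6 h, 15.9% lower and 10.2% higher by the scanner values and 11.8% and 13.3% in the table. Of 34 further machinery genes, such as origin recognition, checkpoint and polymerase subunits, 13 were lower and 1 higher at 6 h by the scanner values and 11 lower and 1 higher in the table, with median log2 changes of -0.68 and -0.67. Dna2, a nuclease and helicase of fragment processing, changed by -2.11 and -1.55 at 6 h, and Clspn, a checkpoint adaptor of the fork, by -1.79 and -1.76. Timeless, a fork protection factor, was lower at 6 h in both, -1.82 and -1.76, but at 12 h it stood at 0.61 by the scanner values and -2.64 in the table. Chromatin assembly and repair genes of S phase, 23 in number, were lower in 14 cases at 6 h by the scanner values and in 17 in the table, with medians of -1.17 and -1.22. Among them Fanci, of the Fanconi crosslink repair pathway, changed by -2.27 and -1.83 and Tcf19 by -2.27 and -2.22. Of 21 other genes of nucleotide synthesis, 2 were lower at 6 h by the scanner values and 3 lower and 1 higher in the table, so neither source called clearly more of them than of all genes. Paics, of purine synthesis, changed by -1.29 and -0.97, and Ctps2, a CTP synthase, by -1.14 and -0.13.

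Regulators of cycle entry were called in both directions. Of 29 genes, 7 were lower and 7 higher at 6 h by the scanner values, and 9 lower and 3 higher in the table, where the share higher was below that of all genes. Cdkn2b, an inhibitor of the kinases that pair with D cyclins, rose in both sources at 6 h, by 2.76 and 4.60 on the log2 scale. Ccnd2, a D cyclin, rose by 3.90 at 6 h and 5.26 at 12 h by the scanner values, whereas its table changes were -0.48 and -1.24. Cdk6, a partner of D cyclins, rose by 2.51 by the scanner values and stood at 0.34 in the table.

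Mitosis genes were lower as well. Of 38 measured of 40 listed, 34 were lower at 6 h by the scanner values, with a median of -1.60, against 10 in the table, with a median of -0.77. At 12 h the counts were 33 and 35, against 16.9% and 12.1% of all genes, with medians of -1.94 and -1.69. At 24 h the medians were 0.04 and -2.52. Between 6 and 12 h the table called 19 mitosis genes lower, against 2.73% of all genes, with a median of -1.01. There the median was 0.04 for the replication genes and 0.08 for all genes. The scanner median over the same interval was -0.32 for mitosis genes and 0.17 for replication genes. Kif23, a kinesin of cell division, changed by -2.17 and -1.39 at 6 h, Kif11, the kinesin that separates spindle poles, by -2.04 and -1.11, and Aurkb, a kinase of chromosome segregation, by -2.09 and -0.84. The difference between both lists was not tested, since their genes share the same samples. The plot of list medians gives the quartiles.

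**Figure D4:**
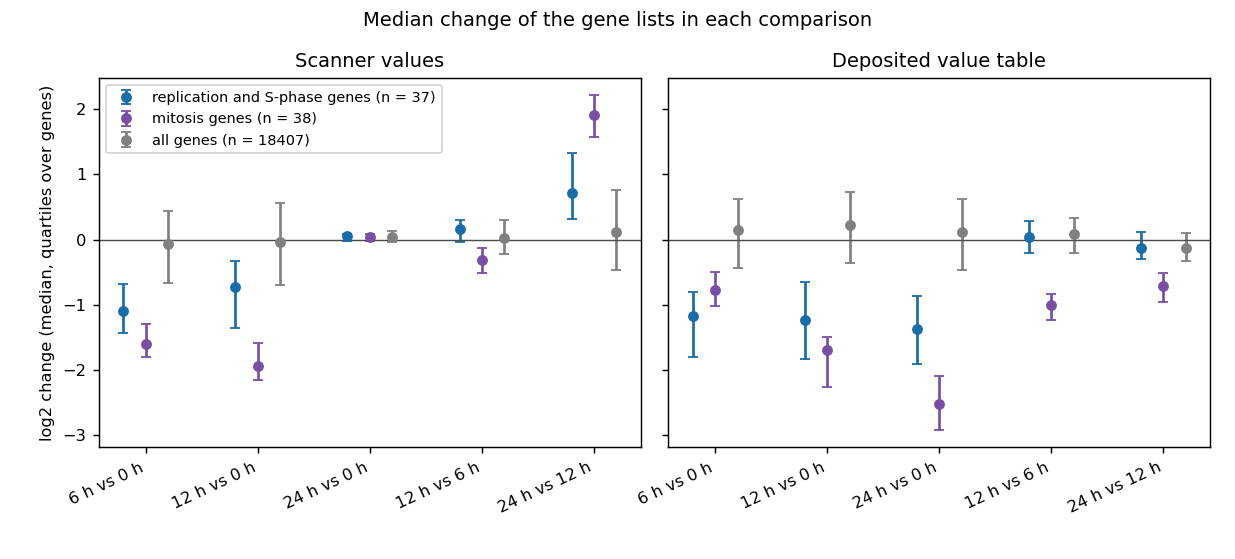
Median log2 change, with bars from the lower to the upper quartile over genes, of the 37 replication and S-phase genes (blue), 38 mitosis genes (purple) and all 18407 genes (grey) in 5 comparisons between times (horizontal axis), in the scanner values (left) and the value table (right). The blue medians at 6 h, -1.09 and -1.18, lie below the grey ones in both panels, and at 24 h against 0 h the panels part, at 0.06 and -1.38.

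Some markers of other cells moved over the same hours. Their summed level, given as linear scanner signal over the 75th percentile, runs over the listed markers with a probe, and the calls are those of the markers well above background on all arrays of a time. By the scanner values 15.9% of all genes were called lower and 10.2% higher at 6 h, and 16.9% and 13.7% at 12 h. In the table the shares lower were 11.8%, 12.1% and 13% at 6, 12 and 24 h, with 13.3% higher at 6 h. Lists of 4 tested markers or fewer are too short to be set against these shares. Progenitor markers, 5 of 5 with a probe and 4 tested, summed to 20.4 to 21.2 at 0 h, 7.47 to 7.57 at 6 h, 10.9 to 11.4 at 12 h and 20.8 to 22 at 24 h. Cd34, with a mean level of 4.32, made up most of the sum at 0 h. Cd34 was lower at 6 and 12 h, and Sox4 was not well above background on any array then. Gfi1 was higher at both times, and Kit had mean levels of -1.86, -1.43 and -0.44 at 0, 6 and 12 h. Myb was below background on every array at 0, 6 and 24 h. The scanner values called 2 of the 4 lower and 1 higher at 6 h, and 2 lower and 2 higher at 12 h. The table called 2 of the 4 lower and 1 higher at 6 h.

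Macrophage markers, 7 of 9, summed to 175 at 0 h, 148 to 165 at 6 h and 276 to 304 at 12 h. Most of them fell: 5 of 7 were called lower at 6 h and 4 lower and 1 higher at 12 h by the scanner values, with medians of -1.57 and -1.22. The table called 1, 5 and 4 of 7 lower at 6, 12 and 24 h, with medians of -0.72, -1.58 and -2.01. Granulocyte precursor markers, 9 of 10, summed to 298 to 306 at 0 h, 285 to 329 at 6 h and 339 to 387 at 12 h. Of these 9, the scanner values called 2 lower at 6 h, not clearly more than the share of all genes. Their median was -0.55 at 6 h and -0.21 at 12 h. In the table they were lower along with the replication genes, 4 of 9 at 6 h, 6 at 12 h and 9 at 24 h, with medians of -0.47, -1.84 and -2.73.

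Mast cell and basophil markers, 6 of 6 with a probe and 4 tested, summed to 3.89 to 4.08 at 0 h and 3.82 to 4.60 at 6 h. Their scanner median was 0.12 at 6 h, and the table called 1, 1 and 4 of 4 lower at 6, 12 and 24 h. T cell markers, 4 of 5, summed to 1.30 to 1.41 at 0 h, 0.734 to 1.25 at 6 h and 0.560 to 0.668 at 12 h. Of these 4, 1 was lower at 6 h by the scanner values, and 1 was lower and 1 higher in the table. At 12 h 3 were lower by the scanner values, with a median of -1.33, and 1 was lower in the table. B cell markers, 5 of 5 with a probe and 3 tested, summed to 0.959 to 1.02 at 0 h and 1.04 to 1.18 at 6 h, with medians of 0.19 and 0.55 at 6 h in the scanner values and the table and Pax5 below background on every array. NK cell markers, 4 of 4 with a probe and 2 tested, summed to 3.17 to 3.36 at 0 h and 0.109 to 0.159 at 6 h, with Klrd1 lower and Ncr1 and Eomes below background on every array. Both tested NK cell markers were lower at 6 and 12 h by the scanner values. The table called 1 lower and 1 higher at 6 h and 1 lower at 12 h. Of 2 tested erythroid markers, 1 was lower at 6 h by the scanner values, and the table had a median of 0.41, with Klf1 below background on every array. Dendritic cell markers, 10 of 10, summed to 469 to 491 at 0 h and 461 to 519 at 6 h, with medians of 0.11 and 0.36 at 6 h. The part of these cells in the fall of the replication genes was not tested.

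Slides moved with time, and the values within a slide were close to those above. Within the first slide, which held 1 sample at 6 h, the median log2 change of the 37 genes at 6 h was -1.03. With the slide as a fixed block, 13 of 37 were lower at 12 h, with a median of -0.65. Without it these were 17 and -0.72, where 16.9% of all genes were called lower. Within the third slide, which held 1 sample at 12 h, the median change from 12 to 24 h was 0.77. A lone sample was taken to vary like the other groups. In a fit without the samples labelled 24 h, 21 genes were lower at 6 h and 17 at 12 h by the scanner values. In the table these counts were 24 and 20. These are the counts of the fit with all samples. For the fits with the slide as a block or without 24 h samples, the shares of all genes called were not taken. Their counts can therefore be set beside the main fit only.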

How the data were processed

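RNA of 12 samples was labelled with Cy3 and hybridised to 1-colour Agilent arrays. Per the file headers and the submitters' processing notes, the authors extracted spot intensity with Agilent Feature Extraction 9.1.3.1, whose processed signal is background-subtracted. The authors also deposited a value table whose values are a ratio to the median at 0 h, with the scaling of its columns not given in the sources used here; nor is the arrays' genome build.

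Outlier spots were left out, log2 was taken, the 75th percentile of each array was subtracted, and probes well above background on all arrays of at least 1 group were kept (23496 of 41174). Names came from RefSeq accessions (GRCm38.p6), and the brightest kept probe stood for its gene. limma 3.58.1 in R 4.3.3, fitted 4 group means to 12 arrays, with 8 residual degrees of freedom, and to log2 of the table. The fit was tested on simulated data. The number of arrays, 3 per time, limits the precision.

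The genes and lists were chosen with earlier results of these data known. Given in full were, in each role, the 2 genes (1 in roles of 3 or fewer) with the largest scanner change against 0 h, and any gene called higher or in opposite directions. From each other list of the pathway, up to 3 called genes with the largest change at 6 h were named. Other genes carry log2 changes, and those singled out beyond this were chosen after their values were seen. Alternatives were normexp background correction (on the median signal, since the files hold no mean signal), quantile normalization, centring of table columns, other probe filters, all probes of a gene, slide and replicate blocks, and leaving out each sample. Fits within slides and without the 24 h samples were added after seeing the data.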

Additional observations from a re-analysis of the deposited data

How the results depend on the processing

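The counts of the 37 genes called changed moved by no more than 1.5 times under every alternative, apart from the scanner comparison of 12 h with 6 h, where none was called as reported. There Mcm6 alone was called higher, so that the count was 1, with the slide as a fixed block and within the second slide (0 with the slide as a random block), and leaving out each sample gave 0 to 1. At 6 h against 0 h the count ran from 14 to 21 for the scanner values and from 20 to 26 for the table. At 12 h it ran from 12 to 17 and from 17 to 24, and for the table at 24 h from 19 to 27. The lowest came from normexp correction and from quantile normalization of the table, and the highest of the table from centring its columns. Of 1734 alternative changes of the genes given in full, 1719 kept their side of the threshold, 10 lost the call and 5 gained it. None turned sign where a change was called. Some small changes without a call did turn sign, such as those of Cdc7 in the table at 6 and 12 h. Normexp correction took Mcm10, Pole2 and Ung below 2-fold at 6 h and Cdc7, Pole2 and Ung at 12 h, and the fixed slide block took Rfc1 to -0.89 at 12 h, where the random block kept it called at -1.10. In the table, quantile normalization took Mcm10 at 6 h (-0.94) and Lig1 at 12 h (-0.85) and 24 h (-0.76) below it. Centring took Rfc2 (-1.04) and Rfc1 (-1.12) at 6 h and E2f1 at 12 h (-1.17) past it, and so did leaving out 0 h replicate 1 (-1.01) or 6 h replicate 1 (-1.04) for Rfc1 at 6 h. The cause of these shifts was not tested. Whether replicate numbers pair the samples was not settled. Deviations of same-numbered samples correlated at -0.085 to 0.155 and those of other numbers at -0.169 to 0.086. Of 12 samples, 5 correlated best with their own number. With the replicate block the counts were 21, 17, 0, 0 and 16 for the scanner values at 6, 12 and 24 h against 0 h, 12 h against 6 h and 24 h against 12 h, and 24, 20, 26, 1 and 0 for the table. Over all 37 genes, normexp correction ended 7 scanner calls at 6 h and 5 at 12 h, and 3 arrays per time limit how small a change can be told from 0.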
